A study of Mus musculus with 11 samples.

Results

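The genes described here are the axonemal dynein heavy chain genes (Dnah) and the cilia and flagella associated protein genes (Cfap) of the mouse. The rule used the symbol alone and no measured value: Dnah followed by a number, or Cfap followed by a number. It was set with earlier results of these data known. The rule took 48 of the 25938 gene symbols counted, 15 Dnah genes and 33 Cfap genes.

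Motile cilia are whip-like projections built on a ring of paired microtubules around a central pair. Dynein heavy chains are the motors: outer arms set mainly the beat frequency and inner arms the shape of the bend. Most Cfap proteins sit in the structures around the motors, which are the projections of the central pair, the radial spokes that reach towards it, the tethers and regulators of the inner arms, and the proteins inside the microtubule wall. In the brain, ependymal cells line the ventricles and move cerebrospinal fluid with tufts of such cilia, and the epithelial cells of the choroid plexus, which secrete that fluid, also carry cilia.

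Single nuclei from frozen mouse brain were sequenced in 11 libraries, with 110304 nuclei and 25938 gene symbols in the deposited count matrix. All animals were homozygous for a human transferrin receptor knock-in (hTfR KI HOM), and each received 4 weekly intravenous doses, with tissue taken 72 hours after the last. The control, ATV:BACE1, was given at 57 mg/kg (3 libraries); the design text calls it the transport vehicle without an antisense oligonucleotide (ASO). OTV:Malat1, an ASO against Malat1 RNA carried by that receptor-binding vehicle, was given at 60 mg/kg (3 libraries), nonTV:Malat1, the conjugate without receptor binding, at 60 mg/kg (3 libraries), and free Malat1 ASO at 2.5 mg/kg (2 libraries). In every group replicate 1 was a female of 2.33 months and replicate 5 a male of 2.33 months, and replicate 4, which free ASO lacked, was a male of 2.57 months. The labels number the replicates without saying that each is a separate animal, so p-values measure the spread between these libraries, which may be technical. The labels give the region as posterior brain, while the deposited table of nuclei gives cortex; for strain the labels name the knock-in, and the table gives C57BL/6J.

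The libraries held between 7546 and 13840 nuclei and between 33235994 and 43972886 unique molecular identifiers (UMIs), and 2.73% of nuclei had a barcode sequence that also occurred in another library. The authors predicted a class for each nucleus, and the class called Glia, 1525 nuclei or 1.38% of all, had the markers of the ventricular epithelium. Its summed level of the 16-gene ependymal marker list was 3509.6 UMIs per 1000000 (CPM), against 113 CPM in Neurons and 205 CPM in Astrocytes. These nuclei were divided by marker lists that hold none of the 48 genes: 659 had more UMIs of the ependymal list and 863 more of the choroid plexus list, 3 were tied, and 25 lay within 3 UMIs of the dividing line. Median list UMIs per nucleus were 16 ependymal and 1 choroid in the first kind, and 4 ependymal and 62 choroid in the second; they are called ependymal-list and choroid-list nuclei below. The authors' table marks 19.5% of Glia nuclei as doublets, from 5.07% to 38.7% by library, the highest being ATV:BACE1 replicate 1. As the class names rest on the RNA of the same nuclei, differences between classes are a description, with no test.

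The Dnah and Cfap genes were concentrated in Glia nuclei. Glia held 1.28% of all UMIs but 18.8% of the UMIs of the 48 genes, and ependymal-list nuclei held 80.3% of the latter within Glia. The summed level of the 48 genes was 17886 CPM in ependymal-list nuclei and 3510.2 CPM in choroid-list nuclei, against 550.2 CPM in Neurons, 688 CPM in Astrocytes, 387 CPM in Oligodendrocytes and 471 CPM in Microglia. By library it ran from 13839 to 21389 CPM in ependymal-list nuclei and from 496 to 599.8 CPM in Neurons, and the ranges lay far apart.

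In 37 of the 48 genes, 12 Dnah and 25 Cfap, the level in Glia was above that in every other class in 11 of 11 libraries, a pattern seen in 2.28% of all genes with a UMI and in 4.97% of genes at 10 CPM or more in Glia. All 37 had at least 10 CPM in Glia, as had 45 of the 48. The exceptions were Dnah3, which endothelium and pericytes also had, Dnah8, Dnah17, Cfap97d1 and Cfap58 at low counts, Cfap157, whose levels in Neurons and Astrocytes were 34.9% and 30.1% of that in ependymal-list nuclei, and the broadly detected Cfap20, Cfap36, Cfap97, Cfap298 and Cfap410.

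**Figure D1:**
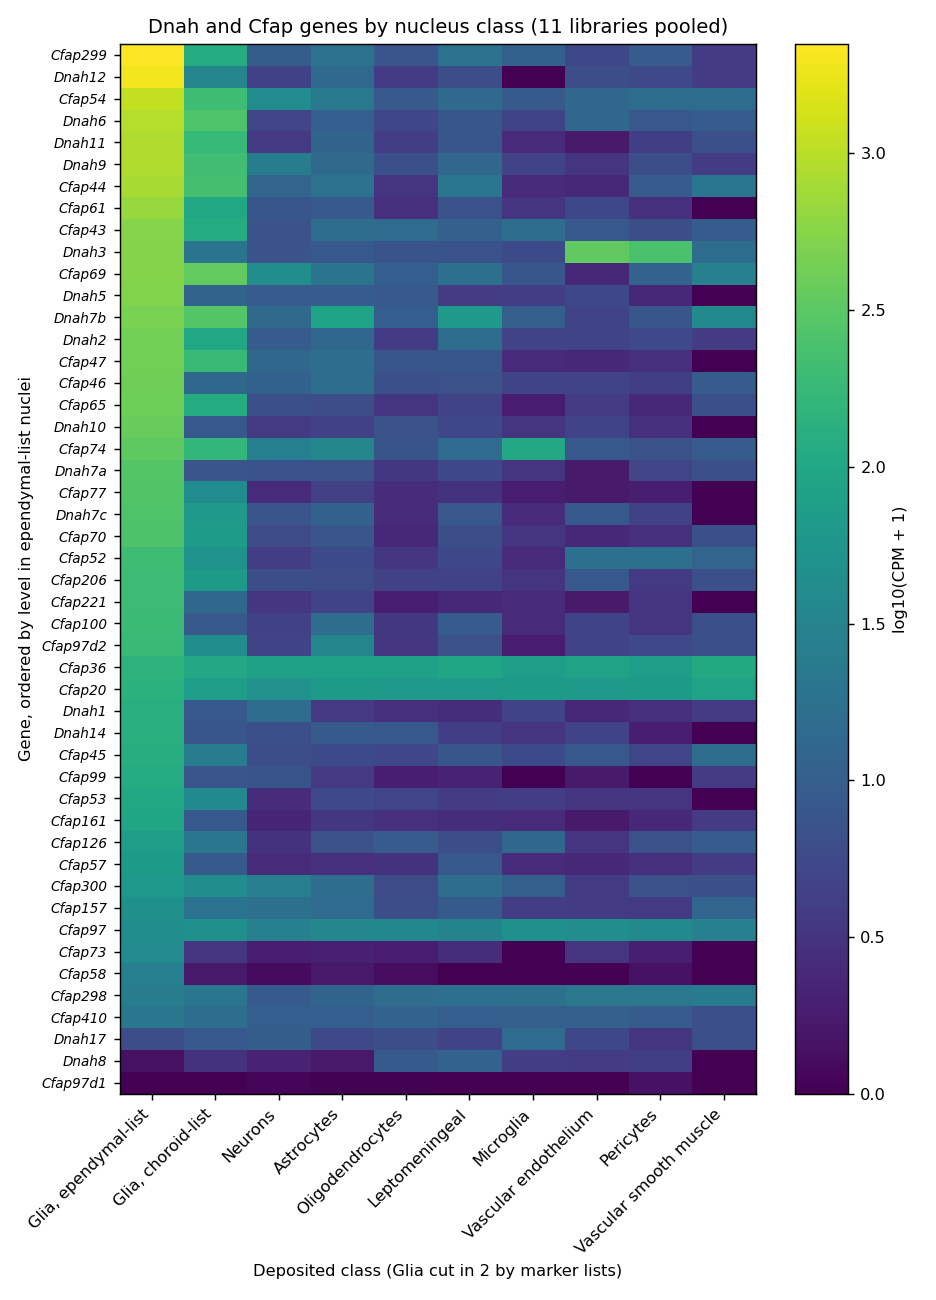
Level of each of the 48 genes (rows, ordered by level in ependymal-list nuclei) in each nucleus class (columns), as log10(CPM + 1) of UMIs pooled over 11 libraries; perivascular macrophages, with 125 nuclei, are not drawn. Ependymal-list nuclei form the brightest column, Dnah3 is also bright in vascular endothelium and pericytes, and Cfap36, Cfap20 and Cfap97 are visible in every column.

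Counted per nucleus, most ependymal-list nuclei carried many of these genes at once. After each nucleus was thinned to 1000 UMIs, ependymal-list nuclei had a mean of 12.4 of the 48 genes with a UMI (library means 10.9 to 13.6), and 96.8% of them had at least 5. Choroid-list nuclei had a mean of 3.43 (library means 2.74 to 4.36), and 27.6% had at least 5. Neurons had a mean of 0.550 and Astrocytes 0.628, and 58.2% and 57.7% of their nuclei had none. The nuclei left out as shallower than 1000 UMIs were 5.61% of ependymal-list, 2.67% of choroid-list, 3.03% of neuronal, 23.1% of astrocyte and 55.0% of oligodendrocyte nuclei; without thinning, the means were 22.3, 8.1 and 2.2 in ependymal-list, choroid-list and neuronal nuclei.

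**Figure D2:**
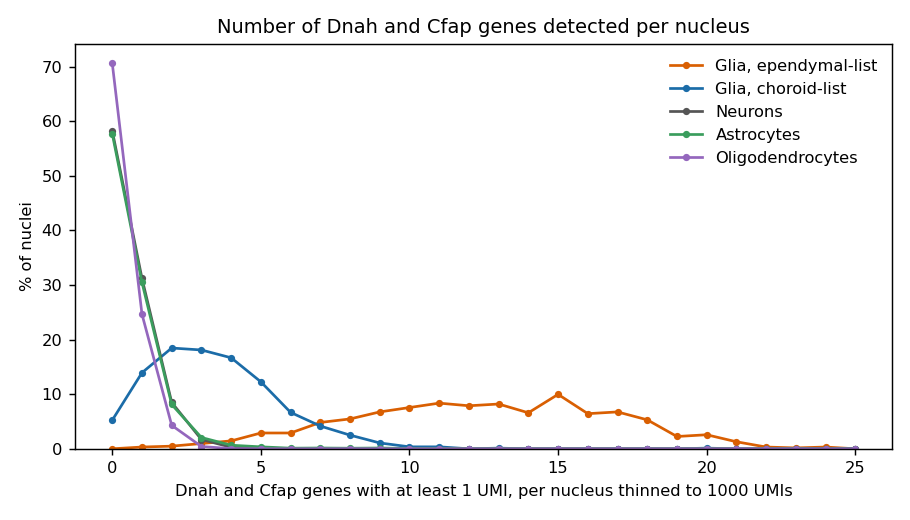
Share of nuclei (vertical axis, %) by the number of the 48 genes with at least 1 UMI after thinning to 1000 UMIs (horizontal axis), for 5 kinds of nuclei. The ependymal-list curve centres on a median of 13 and the choroid-list curve on 3, while Neurons, Astrocytes and Oligodendrocytes are highest at 0.

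The ependymal-list and choroid-list nuclei were then compared gene by gene within each library. None of the 48 genes was used to divide them, but the ependymal list holds other genes of cilia, so a higher level in ependymal-list nuclei partly follows from the division and the p-values are read with that limit. With edgeR's quasi-likelihood test (library as a block, Benjamini-Hochberg adjustment over all genes tested), 37 of the 38 genes that passed the filter on low counts were higher in ependymal-list nuclei and none was lower. Of all 5163 genes tested, 58.3% were called and 29.2% were called higher in ependymal-list nuclei. The filter passes genes with enough counts in either kind, so those 38 are not all 48; without a filter 41 of 47 genes were called, all higher, beside 23.8% of all genes. The 10 genes that the filter removed were Dnah8, Dnah17, Cfap57, Cfap58, Cfap73, Cfap97d1, Cfap126, Cfap157, Cfap298 and Cfap410. Divided by the choroid plexus list alone, which holds no cilium gene (fewer than 10 UMIs of it, 660 nuclei, against 10 or more, 865 nuclei), 38 of 39 genes were called, all higher in the nuclei with fewer, beside 58.2% of all 5193 genes called and 29.4% called higher there. In 33 of the 48, the lowest ependymal-list library lay above the highest choroid-list library, against 3.36% of genes with a UMI in Glia. The size of the difference ranged widely: 15 genes had a choroid-list level under 10% of the ependymal-list level, 11 had 10 to 25%, and 21 had more than 25%; Cfap97d1 had no UMI in Glia.

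The outer arm heavy chains expressed in these nuclei were Dnah5, Dnah9 and Dnah11. Dnah5, whose human counterpart is a frequent cause of primary ciliary dyskinesia, lies at chr15:28203752-28472052 (mm10) and had a lowest, median and highest library level of 398, 534 and 625 CPM in ependymal-list nuclei. In choroid-list nuclei these values were 0, 4.08 and 39.6 CPM, no more than 8 UMIs in a library, so the kinds did not overlap. The log2 difference was 5.52 ± 0.25 (SE; edgeR, adjusted p = 5.4e-19). It was 4.67 ± 0.23 in replicates 4 and 5 alone and 4.65 ± 0.23 with nuclei divided by the choroid plexus list alone.

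Dnah9 and Dnah11, the other heavy chains of the ciliary outer arm, which in airway cilia occupy the far and near part of the shaft, were less unequal. Dnah9 (chr11:65831282-66168551) ran at 635, 866 and 1141 CPM (lowest, median and highest) in ependymal-list and 154, 218 and 317 CPM in choroid-list nuclei, a log2 difference of 2.08 ± 0.10. Dnah11 (chr12:117877982-118199043) ran at 584, 866 and 1157 CPM and 127, 163 and 252 CPM, a log2 difference of 2.34 ± 0.11. The choroid-list level of Dnah9 and Dnah11 was 23.8% and 19.6% of the ependymal-list level, and that of Dnah5 was 2.07%. Dnah8 and Dnah17, the outer arm chains known from sperm tails, had 7 and 33 UMIs in all Glia nuclei together.

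Among the inner arm heavy chains Dnah12 (chr14:26693274-26891703) had the largest fitted difference of the genes tested. Its ependymal-list levels were 1513, 2034 and 2584 CPM (lowest, median and highest library) and its choroid-list levels 0, 40.8 and 100.1 CPM, a log2 difference of 5.86 ± 0.24 (edgeR, adjusted p = 3.4e-20). The choroid-list libraries fell into separate ranges by replicate: the 4 libraries of replicate 1 held 6 UMIs of Dnah12 in all and the 7 of replicates 4 and 5 held 88, or 0.234% and 2.91% of the ependymal-list level. The split was not particular to choroid-list nuclei: in Astrocytes Dnah12 was at 5.06 to 8.57 CPM against 11.9 to 35.5 CPM, again without overlap, while in ependymal-list nuclei, at 1513 to 2123 CPM against 1558 to 2584 CPM, and in Neurons, at 1.82 to 3.34 CPM against 3.22 to 5.73 CPM, the ranges overlapped. Replicate 1 is also a batch of its own in the metadata and the only female replicate, and their parts in this split cannot be told apart. In replicates 4 and 5 alone the log2 difference of Dnah12 was 5.10 ± 0.16, and with nuclei divided by the choroid plexus list alone it was 4.68 ± 0.27, next to 4.72 ± 0.23 for Dnah10, so the order of these genes changed with the division. Dnah10 (chr5:124725085-124834308), which pairs with Dnah2 in one inner arm, followed with 186, 373 and 459 CPM against 0, 4.95 and 28.2 CPM and a log2 difference of 5.59 ± 0.22. For Dnah10 this difference was 4.99 ± 0.25 in replicates 4 and 5 alone. Its partner Dnah2 (chr11:69420809-69549110) had 329, 409 and 531 CPM against 60.6, 96.0 and 158 CPM, a log2 difference of 2.17 ± 0.12; so the level in choroid-list nuclei was 1.95% of that in ependymal-list nuclei for Dnah10 and 22.7% for Dnah2. Dnah6 (chr6:73017606-73221651) ran at 711, 918 and 1209 CPM and 192, 272 and 389 CPM, a log2 difference of 1.79 ± 0.11. Dnah3 and Dnah1, further inner arm chains, had log2 differences of 4.80 ± 0.16 and 4.06 ± 0.26, and Dnah14, whose place in the axoneme is less clear, 4.05 ± 0.28. Every heavy chain named in this paragraph had its lowest ependymal-list library above its highest choroid-list library.

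The copies Dnah7a, Dnah7b and Dnah7c, inner arm heavy chains encoded on chromosome 1, had unlike choroid-list levels. Dnah7a (chr1:53397006-53706784) had 197, 282 and 374 CPM (lowest, median and highest) in ependymal-list and 0, 6.26 and 14.9 CPM in choroid-list nuclei, a log2 difference of 5.34 ± 0.20. For Dnah7a it was 4.96 ± 0.25 in replicates 4 and 5 alone and 4.56 ± 0.21 with the choroid plexus list alone. Dnah7c (chr1:46425592-46807476) had 197, 284 and 423 CPM and 37.5, 63.4 and 84.2 CPM, a log2 difference of 2.13 ± 0.13. Dnah7b (chr1:46066315-46373546) had 366, 440.5 and 601 CPM and 214, 287 and 418 CPM, overlapping ranges with a log2 difference of 0.72 ± 0.11 (edgeR, adjusted p = 6.0e-07). The choroid-list level was thus 2.35%, 23.5% and 60.9% of the ependymal-list level for Dnah7a, Dnah7c and Dnah7b, and 1.77%, 23.9% and 64.3% without called doublets. The copies' longest annotated transcripts share between 30.3% and 38.8% of their 50-base words, so reads can be split or dropped between them and their counts are uncertain.

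The 250 bases before the annotated start of each copy are shown because the copies are alike in sequence but not in their choroid-list share (RefSeq, GRCm38.p6, written 5′ to 3′ on the gene's strand; RefSeq's starts of Dnah7b and Dnah7c differ by 538 and 74 bases from those of the gene records above). Capitals mark GTTGCC, a core of the sequence bound by RFX factors, the transcription factors known to act on cilium genes, and an inverted pair GTTGCNNNGCAAC. The pair was chosen for display after the sequences had been seen.
Dnah7a (chr1:53706785-53707034, minus strand): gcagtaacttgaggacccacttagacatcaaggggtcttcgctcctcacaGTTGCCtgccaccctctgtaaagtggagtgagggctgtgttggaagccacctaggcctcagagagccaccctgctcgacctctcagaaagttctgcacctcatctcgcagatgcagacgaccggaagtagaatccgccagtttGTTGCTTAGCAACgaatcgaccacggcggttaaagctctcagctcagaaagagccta
Dnah7b (chr1:46066603-46066852, plus strand): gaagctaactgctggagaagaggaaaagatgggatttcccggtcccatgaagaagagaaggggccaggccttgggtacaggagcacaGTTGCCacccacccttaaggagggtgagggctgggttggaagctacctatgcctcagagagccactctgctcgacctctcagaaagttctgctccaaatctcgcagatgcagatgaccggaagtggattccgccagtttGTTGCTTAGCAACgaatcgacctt
Dnah7c (chr1:46425268-46425517, plus strand): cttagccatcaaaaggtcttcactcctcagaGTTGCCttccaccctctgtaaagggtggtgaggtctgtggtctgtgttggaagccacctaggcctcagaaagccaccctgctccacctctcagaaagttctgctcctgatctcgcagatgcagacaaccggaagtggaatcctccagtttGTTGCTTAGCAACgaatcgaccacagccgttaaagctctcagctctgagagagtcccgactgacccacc
All 3 windows hold the same 13 letters GTTGCTTAGCAAC, beginning 57, 24 and 69 bases before the start in Dnah7a, Dnah7b and Dnah7c, and 1 GTTGCC further out. Aligned over these windows, Dnah7a and Dnah7c are identical at 78.4% of columns, Dnah7a and Dnah7b at 64.1% and Dnah7b and Dnah7c at 56.8%.

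Compared per 100 kb of gene span, heavy chain levels in ependymal-list nuclei ran from 981 CPM for Dnah12 and 460.4 CPM for Dnah6, through 341 CPM for Dnah10 and 333 CPM for Dnah2, to 70.5 CPM for Dnah7c, 52.2 CPM for Dnah14, 4.76 CPM for Dnah17 and 0.171 CPM for Dnah8, the last pair at few UMIs. Whether reads in introns were counted is not given in the sources used here, so this order is a description.

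The 7 central pair genes were all above every other class in all 11 libraries, with choroid-list levels from 2.92% (Cfap46) to 67.0% (Cfap69) of the ependymal-list level. Cfap46 (chr7:139600951-139683817) had 282, 428 and 599 CPM (lowest, median and highest) in ependymal-list and 0, 14.1 and 25.4 CPM in choroid-list nuclei, with a log2 difference of 5.05 ± 0.18, and Cfap221 had a difference of 3.97 ± 0.21. Cfap69 (chr5:5579278-5664239) had 393, 510.3 and 663 CPM and 245, 377 and 516 CPM, ranges that overlapped, with a log2 difference of 0.59 ± 0.10 and a higher ependymal-list level in 10 of 11 libraries. Cfap74 (chr4:155409190-155466823) had 230.5, 324 and 379 CPM and 106, 170.1 and 194 CPM, a log2 difference of 1.05 ± 0.11 without overlap. Cfap54, Cfap65 and Cfap47 lay between these, at 2.44 ± 0.10, 1.79 ± 0.11 and 1.28 ± 0.10.

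Genes of the other axonemal structures were also higher in ependymal-list nuclei. The radial spoke genes Cfap61 and Cfap206 had log2 differences of 2.82 ± 0.12 and 1.63 ± 0.14. Cfap43 and Cfap44, which tether the inner arm that Dnah2 and Dnah10 form, had 2.21 ± 0.14 and 1.79 ± 0.10, and Cfap100, part of a complex that regulates that arm, 4.53 ± 0.28. Of the proteins inside the microtubule wall, Cfap161, Cfap77, Cfap45, Cfap52 and Cfap53 had between 1.43 and 3.65, and Cfap20 0.92 ± 0.15. Cfap299 (chr5:98329304-98802047), with no place in these groups, had the most Glia UMIs of the 48 genes, 5504. It ran at 1541, 2261 and 2639 CPM (lowest, median and highest) in ependymal-list and 65.3, 110.2 and 218 CPM in choroid-list nuclei, a log2 difference of 4.26 ± 0.13. The arm assembly gene Cfap300 had the smallest difference among the genes called, 0.49 ± 0.18 (edgeR, adjusted p = 0.019), and 0.41 ± 0.24 with no call in replicates 4 and 5 alone (adjusted p = 0.16). Cfap97 was the tested gene without a call, at -0.08 ± 0.20 (adjusted p = 0.73).

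**Figure D3:**
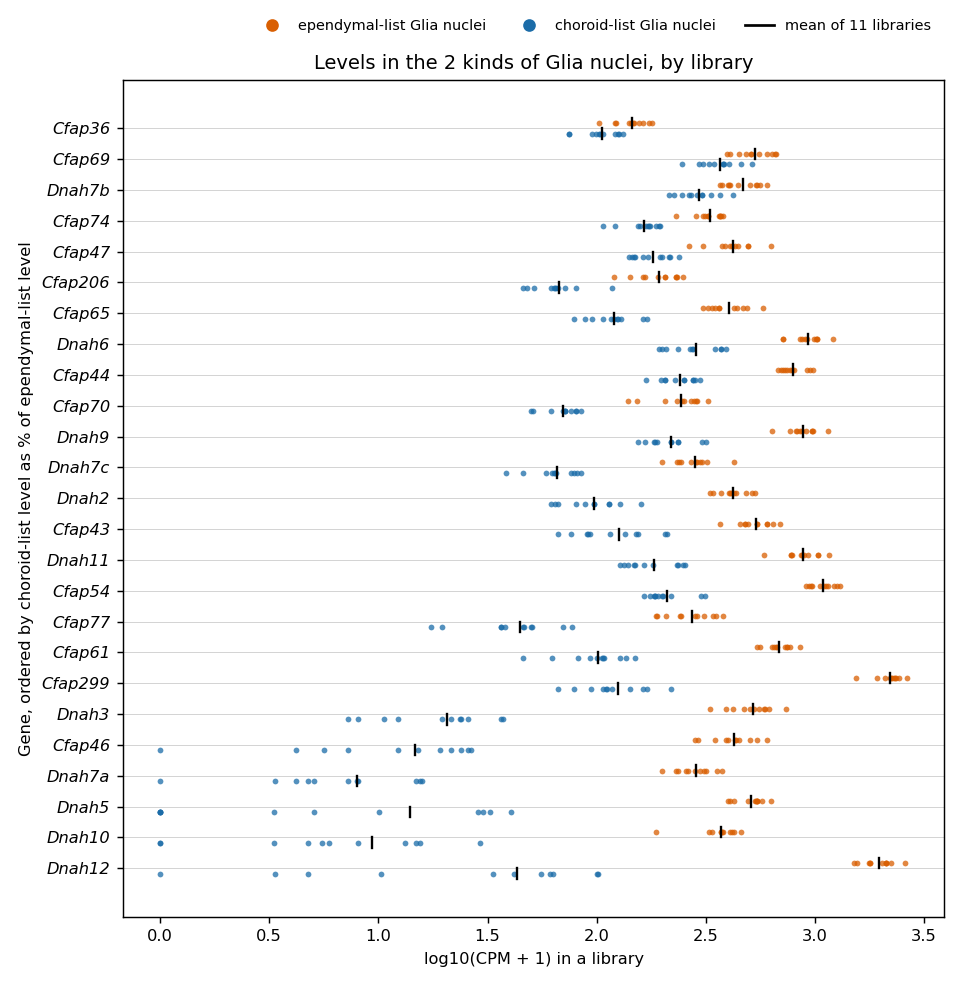
Levels of the 25 genes with the most CPM in Glia, as log10(CPM + 1) in each of 11 libraries (points; black ticks, log of the mean), ordered by the choroid-list level as a percent of the ependymal-list level. Dnah12 and Dnah10 at the bottom have widely separate points, while those of Cfap69, Dnah7b and Cfap36 at the top overlap.

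The choroid-list level was not a fixed share of the ependymal-list level. Summed by role, it was 14.7% of it for the 9 inner arm heavy chains, 17.7% for the 5 outer arm heavy chains, 18.6% for the 2 radial spoke genes, 30.7% for the 7 central pair genes and 74.2% for the 2 arm assembly genes. Sums are set by the most abundant genes of a role: the medians over genes were 5.68%, 23.8%, 23.6%, 29.1% and 75.1% in the same order. The outer arm median counts Dnah8 and Dnah17, with shares of 480% and 140% from few UMIs. Of the 2 arm assembly genes, Cfap298 was removed by the filter. Its share was 57.1% in replicate 1 and 103% in replicates 4 and 5. Within the inner arm chains the share ran from 1.67% to 60.9%. Examples by gene were 1.67% for Dnah12 and 1.95% for Dnah10, 18.6% for Cfap54, 28.6% for Dnah6 and 67.0% for Cfap69. Without called doublets these values were 1.05%, 1.75%, 18.1%, 31.3% and 73.1%. In replicate 1 the shares of Dnah12, Dnah10, Dnah5 and Dnah7a were 0.234%, 0.914%, 0.141% and 1.54%, from only 6, 5, 1 and 6 choroid-list UMIs. In replicates 4 and 5 the shares were 2.91%, 2.997%, 3.84% and 3.11%, from 88, 16, 30 and 13 choroid-list UMIs. Those of Cfap46 and Cfap100 were 1.22% and 1.02% in replicate 1, from 6 and 3 choroid-list UMIs, and 4.24% and 7.37% in replicates 4 and 5. The 16 ependymal markers, which divided the nuclei and are given as a description, ran from 2.40% (Adgb and Rgs22) to 84.0% (Lrriq1). The astrocyte marker list summed to 2070.3 CPM in ependymal-list and 1134 CPM in choroid-list nuclei, and the endothelial list to 93.3 and 262 CPM, with no gene of either list at 0. How much of these list levels is RNA from other cells, and how much is the nuclei's own, was not tested. The part of RNA from other cells in the levels of the 48 genes was not tested either.

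Upstream windows of 4 further members, the last 150 bases before the start, are shown as examples with a low choroid-list share (Dnah10 and Cfap46) and with a high one (Cfap44 at 28.6% and Cfap74 at 50.05%). Capitals mark GTTGCC on either strand and, in Cfap44, the inverted pair GTTGCNNNNGCAAC, which overlaps it. RefSeq's starts of Cfap46 and Cfap44 differ by 2 and 3 bases from those of the gene records.
Dnah10 (chr5:124724935-124725084, plus strand): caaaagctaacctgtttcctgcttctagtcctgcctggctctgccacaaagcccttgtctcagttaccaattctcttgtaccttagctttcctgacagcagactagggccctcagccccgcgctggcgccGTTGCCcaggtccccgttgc
Cfap46 (chr7:139683816-139683965, minus strand): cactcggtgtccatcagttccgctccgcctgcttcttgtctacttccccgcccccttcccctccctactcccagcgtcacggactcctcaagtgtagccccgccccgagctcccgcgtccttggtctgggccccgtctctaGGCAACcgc
Cfap44 (chr16:44394649-44394798, plus strand): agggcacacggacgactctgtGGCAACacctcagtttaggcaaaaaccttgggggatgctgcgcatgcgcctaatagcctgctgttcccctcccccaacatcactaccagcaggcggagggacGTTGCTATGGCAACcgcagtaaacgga
Cfap74 (chr4:155409040-155409189, plus strand): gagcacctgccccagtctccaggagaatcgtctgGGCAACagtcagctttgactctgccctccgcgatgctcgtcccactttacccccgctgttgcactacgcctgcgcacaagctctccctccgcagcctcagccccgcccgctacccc
Promoter windows (250 bases before to 50 after the start) were matched for 40 of the 48 genes. GTTGCC, on either strand, was in 14 of the 40, or 35%, and in 12.7% of all 27025 promoter windows. Without the Dnah7 copies, which are alike in sequence, it was in 11 of 37. Every window shown here holds GTTGCC, so the windows shown are not typical of the 40. GTTGCNNNGCAAC was in 4 of the 40 and in 0.233% of all windows; 3 of the 4 are the Dnah7 copies in which it was noticed, and of the other 37 genes 1, Dnah6, had it. With other spacings, GTTGCNNGCAAC was in none and in 0.0148% of all windows, and GTTGCNNNNGCAAC was in 2 (Cfap44 and Cfap298) and in 0.167%. The RFX palindrome GTTNCCNNGGNAAC was in 1 (Cfap298) and in 0.444%. The forkhead core TGTTTAC was in 3 and in 3.55% of all windows. These are letter matches and show neither binding nor its absence.

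A few of the genes had marked levels outside Glia. Dnah3 (chr7:119922671-120095280) had 340.3 CPM in vascular endothelium and 245 CPM in pericytes, beside 531 CPM in ependymal-list and 18.3 CPM in choroid-list nuclei and 6.19 CPM in Neurons. Its endothelial level was 132, 428 and 589 CPM in the lowest, median and highest of 11 libraries, and the 4 libraries of replicate 1, at 132, 239.7, 228 and 211 CPM (ATV:BACE1, nonTV:Malat1, OTV:Malat1 and free Malat1 ASO), all lay below the other 7, at 416 to 589 CPM. Replicate 1 is also a batch and the only female replicate, so these cannot be told apart, and this split was noticed after the values were seen. The split was not particular to endothelium: in Neurons Dnah3 was at 3.11 to 4.18 CPM against 6.19 to 9.67 CPM, again without overlap. In pericytes the same 4 libraries ran from 103 to 211 CPM and the other 7 from 205 to 419 CPM, with an overlap, and in ependymal-list nuclei from 391 to 737 CPM and from 330.3 to 613 CPM. Whether the nuclei named pericytes carry endothelial RNA was not tested, so levels in both classes do not show expression of Dnah3 in both cell types. Of the 48 genes, 13 had all replicate 1 libraries below the other 7 in Neurons, beside 9% of genes with a UMI there, 7 in Astrocytes (2.58%), 2 in choroid-list nuclei (0.667%), 1 in Oligodendrocytes (2.25%) and 1 in endothelium (0.347%). In Neurons 1 gene, Cfap410, had them all above (4.61%). Dnah3 overlaps Lyrm1 on the opposite strand over 34293 bases, and Lyrm1 had 67.2 CPM in endothelium and 345 CPM in ependymal-list nuclei. Whether the authors' counting used strand is not given in the sources used here, and without strand the reads of the 2 genes cannot be told apart. The same holds for Dnah1, which Gm35823 overlaps on the opposite strand over 52185 bases, and for Cfap52 with 9130017K11Rik over 22854 bases; these neighbours had 51.9 and 143 CPM in ependymal-list nuclei.

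Cfap74 was at 103 CPM in Microglia (63.8 to 142 CPM by library), and a gene antisense to it, 5830444B04Rik, was at 47.4 CPM there. Dnah7b was at 87.2 CPM in Astrocytes, with 75.04, 85.0 and 110.4 CPM in the lowest, median and highest library, while Dnah7a and Dnah7c were at 6.24 and 10.1 CPM. Cfap20, a protein inside the microtubule wall, was between 48.7 and 84.6 CPM in the 8 classes other than Glia and perivascular macrophages, against 103 CPM in Glia; perivascular macrophages, at 180.3 CPM, rest on 25 UMIs. Dnah17 likewise was highest in perivascular macrophages, at 28.8 CPM from 4 UMIs. Cfap36, known to bind the ciliary small GTPase Arl3, was at 122 CPM in Glia, where it topped all other classes in 5 of 11 libraries, and was at 146 and 103 CPM in the median ependymal-list and choroid-list library. Cfap97 had 45.7 CPM in Glia and 46.6 CPM in Microglia. Cfap298, which assists arm assembly, had 21.9 CPM in Glia and 22.5 CPM in vascular smooth muscle, the latter from 8 UMIs.

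Neurons, though low, held 71.8% of all UMIs of the 48 genes, in 76211 of the 110304 nuclei. The central pair genes Cfap69 and Cfap54 had 42.5 and 40.6 CPM there, Cfap74 26.9 CPM and Dnah9 25.3 CPM. In the authors' neuronal clusters of at least 1000 nuclei, Cfap54 ran from 30.3 CPM (cluster 9) to 44.9 CPM (cluster 0), and Cfap69 from 30.2 CPM (cluster 2) to 54.4 CPM (cluster 1). Dnah9 ran from 12.7 CPM (cluster 2) to 31.0 CPM (cluster 1). Dnah9 has an antisense neighbour, Gm12296, which overlaps it by 517 bases and had 76.2 CPM in Neurons.

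Related genes outside the 48, from lists that name no Dnah or Cfap gene of the rule, were compared the same way. Of 60 axonemal accessory genes in the matrix (assembly factors, docking, spoke and central pair proteins), 38 passed the filter in the comparison of the 2 kinds of nuclei; 36 were higher in ependymal-list nuclei and 2 were lower, with a median log2 difference of 1.82, against 2.19 for the 38 tested Dnah and Cfap genes and -0.05 for all genes tested. In the same fit 58.3% of all 5163 genes tested were called and 29.2% were called higher in ependymal-list nuclei. The central pair genes Spag17 and Hydin had log2 differences of 5.23 ± 0.22 and 3.49 ± 0.15, and Spag16 had 0.72 ± 0.09. Drc7, of the nexin link, was lower in ependymal-list nuclei, at -1.52 ± 0.13, with 97.2 CPM there and 289.7 CPM in choroid-list nuclei.

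Of 15 genes of multicilia transcription 7 were tested, with 4 higher and 1 lower. Beside them, 58.3% of all 5163 genes tested were called and 29.2% were called higher in ependymal-list nuclei. Whether the 7 genes differ from these shares was not tested. Gmnc, which starts the multiciliation programme, was at 37.2 CPM in ependymal-list and 970 CPM in choroid-list nuclei, a log2 difference of -4.66 ± 0.13. Rfx2 and Rfx4, RFX factors, had 1.33 ± 0.12 and 2.18 ± 0.17, and Rfx3 had -0.06 ± 0.09 (adjusted p = 0.55, edgeR). Foxj1 is one of the genes that divided the nuclei, so its difference is no result. Cytoplasmic dynein and intraflagellar transport genes, which cells with and without motile cilia use, had 15 of 23 tested higher and none lower, with a median of 0.61. Their share called was near that of all genes tested, given above, and their share called higher was above it. Dync2h1, Dync1i1, Ift88 and Ift81 had 0.82, 2.44, 1.47 and 1.36.

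The dosing groups were compared next, to ask whether these genes changed with the conjugates or the free ASO. The targeted RNA, Malat1, took 4.00% to 5.03% of UMIs in the OTV:Malat1 libraries and 7.45% to 8.39% in the other 8. In ependymal-list nuclei it was 77394, 78948 and 99184 CPM under ATV:BACE1 and 61667, 53985 and 72545 CPM under OTV:Malat1 (replicates 1, 4 and 5), without overlap, a log2 change of -0.48 ± 0.15 that edgeR did not call (adjusted p = 0.55).

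No Dnah or Cfap gene was called in any of the 5 comparisons, in all nuclei, in Glia, in ependymal-list nuclei or in the other classes tested (edgeR, adjusted p under 0.05). Malat1 itself was not called for OTV:Malat1 against ATV:BACE1 in all nuclei, at a log2 change of -0.79 ± 0.14, or in Glia, at -0.51 ± 0.22. It was called in Oligodendrocytes, Microglia and endothelium. The lack of a call in all nuclei or Glia thus does not show that a gene was unchanged. In Glia, 44 of the 48 passed the filter, and 0% of the 10228 genes tested were called in each comparison. For OTV:Malat1 against ATV:BACE1, 15 of the 44 had an unadjusted p under 0.05, beside 5.51% of all genes tested, and 40 had a log2 change above 0, with a median of 0.47 against -0.01 for all genes tested. DESeq2 likewise called none, with 15 under 0.05 beside 2.58% of all genes. For the other comparisons the median in Glia was 0.23 for nonTV:Malat1 against ATV:BACE1, 0.16 for free Malat1 ASO against ATV:BACE1, 0.16 for OTV:Malat1 against nonTV:Malat1 and 0.23 for OTV:Malat1 against free Malat1 ASO, with 3, 4, 1 and 3 genes under 0.05 beside 3.47%, 3.08%, 2.44% and 2.97% of all genes. DESeq2 had 1, 3, 0 and 2. With the replicate number as a block, these 4 medians were 0.23, 0.27, 0.16 and 0.10, and without called doublets 0.12, -0.00, 0.26 and 0.35, so their sizes changed with these choices. The first 3 comparisons share the ATV:BACE1 libraries. Without ATV:BACE1 replicate 5 the OTV:Malat1 median against ATV:BACE1 was 0.28, and without ATV:BACE1 replicate 4 it was 0.63. Fewer genes had an unadjusted p under 0.05 when ATV:BACE1 replicate 1 or 5, or OTV:Malat1 replicate 1 or 4, was left out. More had one without ATV:BACE1 replicate 4. Shares of all genes are not given for these fits, so these changes are not set against all genes.

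The makeup of the Glia class differed between libraries, and its part in the Glia values was not tested. Ependymal-list nuclei were 38.7, 38.3 and 29.5% of Glia nuclei in ATV:BACE1 replicates 1, 4 and 5, 40.2, 45.6 and 44.9% in nonTV:Malat1 and 50, 56.9 and 38.9% in OTV:Malat1, and 33.6 and 59.0% in free Malat1 ASO replicates 1 and 5. Every OTV:Malat1 and nonTV:Malat1 library thus had a larger share than the 3 ATV:BACE1 libraries, while 1 free ASO library lay within the ATV:BACE1 range and the other above it. The margin was small: OTV:Malat1 replicate 5 had 42 of 108 nuclei and ATV:BACE1 replicate 1 had 74 of 191. By share of Glia UMIs the order did not hold, as nonTV:Malat1 replicate 1 had 38.5% and ATV:BACE1 replicates 1 and 4 had 41.1 and 41.3%. The summed level of the 48 genes in Glia was 7925, 10864 and 6525 CPM under ATV:BACE1, 8485, 11199.8 and 10717 CPM under nonTV:Malat1, 12520.2, 12501 and 9482 CPM under OTV:Malat1 and 8256 and 11277 CPM under free Malat1 ASO, and the groups overlapped. In ependymal-list nuclei alone it was 15210.2, 20105 and 13839 CPM, 17356, 18406 and 18534 CPM, 21389, 19741 and 17289.6 CPM and 17326 and 15995 CPM in the same order. The nonTV:Malat1 libraries all lay above those of free ASO, at the closest by 17356 against 17326 CPM, and the other pairs of groups overlapped. Within replicates 1, 4 and 5, which are also the metadata's batches, the log2 ratio of OTV:Malat1 to ATV:BACE1 was 0.66, 0.20 and 0.54 in Glia and 0.49, -0.03 and 0.32 in ependymal-list nuclei.

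**Figure D4:**
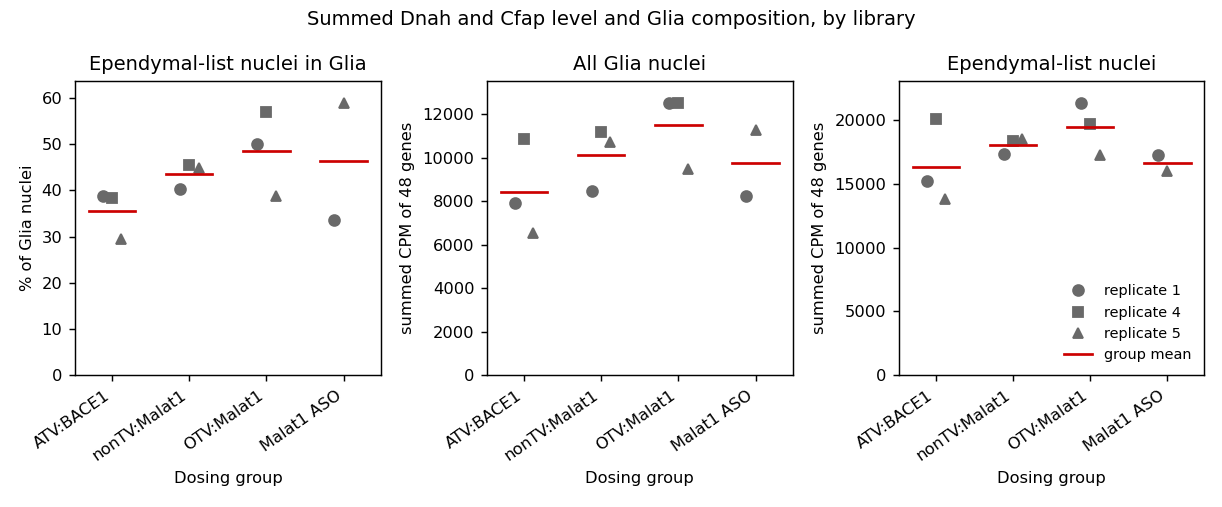
Share of ependymal-list nuclei in Glia (left, %), and the summed CPM of the 48 genes in all Glia nuclei (middle) and in ependymal-list nuclei (right), by library (symbols by replicate) and dosing group (red line, group mean). On the left all OTV:Malat1 and nonTV:Malat1 libraries lie above the ATV:BACE1 libraries, the closest at 38.9 and 38.7%. In the middle all groups overlap. On the right they overlap except nonTV:Malat1 and free ASO, the closest at 17356 and 17326 CPM. The lowest summed level in both is ATV:BACE1 replicate 5, at 6525 and 13839 CPM.

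Within ependymal-list nuclei, 43 of the 48 genes passed the filter and none was called for OTV:Malat1 against ATV:BACE1, where 0.015% of 6670 genes were. The median log2 change was 0.29, 36 of 43 were above 0, and 6 had an unadjusted p under 0.05, beside 5.52% of all genes; DESeq2 called none and had 1. Without called doublets, with all 11 libraries kept, the median was -0.02 (all genes -0.03), with 17 of 40 genes above 0 and 1 under 0.05, so the higher values in ependymal-list nuclei were not seen once those nuclei were left out. The median was 0.17 without ATV:BACE1 replicate 5, 0.19 without ATV:BACE1 replicate 1, 0.18 without OTV:Malat1 replicate 1 and 0.43 without ATV:BACE1 replicate 4. Median changes in the other comparisons, in the order above, were 0.17, -0.03, 0.11 and 0.23, with none called in edgeR or DESeq2, beside 0%, 0%, 0% and 0.015% of all genes in edgeR, and with 2, 3, 1 and 3 genes under an unadjusted 0.05 in edgeR, beside 3.67%, 2.94%, 3.6% and 4.42% of all genes; with the block they were 0.18, 0.01, 0.09 and 0.13, and without called doublets -0.09, -0.27, 0.07 and 0.26. The SEs of single genes there had a median of 0.25 for OTV:Malat1 against ATV:BACE1. In all nuclei together 47 genes passed, and the medians were 0.09, 0.18, -0.03, -0.07 and 0.13 in the same 5 comparisons, with 1, 3, 0, 0 and 1 genes at an unadjusted p under 0.05 beside 0.752%, 0.901%, 1.75%, 0.766% and 0.621% of all genes; with the block the medians were 0.09, 0.18, 0.05, -0.07 and 0.04. In such sums the number of cells and the RNA per cell cannot be told apart. Neurons held 71.8% of all UMIs of the 48 genes and Glia 18.8%, so these medians do not measure ciliated cells alone.

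The 3 genes with the smallest p for OTV:Malat1 against ATV:BACE1 in Glia were Cfap77, Cfap58 and Cfap221. Cfap77, inside the microtubule wall, was at 87.9, 145 and 71.6 CPM under ATV:BACE1 (replicates 1, 4 and 5), 132, 154 and 118 CPM under nonTV:Malat1, 214, 206 and 142 CPM under OTV:Malat1 and 150.3 and 204 CPM under free Malat1 ASO (replicates 1 and 5). OTV:Malat1 replicate 5 lay below ATV:BACE1 replicate 4, so those groups overlapped, and the log2 change of 0.90 ± 0.25 had an adjusted p of 0.86 in edgeR. In ependymal-list nuclei the change was 0.56 ± 0.24.

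Cfap58 had few UMIs: 3, 0 and 0 in the ATV:BACE1 libraries, 6, 14 and 5 in nonTV:Malat1, 7, 10 and 3 in OTV:Malat1 and 7 and 10 in free Malat1 ASO. All 8 dosed libraries of the ASO groups had a higher CPM than the 3 controls, and Cfap58 had the smallest or second smallest p against ATV:BACE1 in all 3 comparisons (edgeR, adjusted p = 0.86, 1.00 and 1.00 for OTV:Malat1, nonTV:Malat1 and free Malat1 ASO). It is described because of its small p, the 3 comparisons share the controls, whose 3 UMIs come from 1 library, and no fold is given. Cfap221, of the central pair, was at 78.2, 81.4 and 68.9 CPM under ATV:BACE1 and 171, 107 and 90.8 CPM under OTV:Malat1, a log2 change of 0.70 ± 0.24 in Glia and 0.35 ± 0.24 in ependymal-list nuclei. OTV:Malat1 replicate 1 stood highest.

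By the same rule the other comparisons named Cfap45, at 1.13 ± 0.32, and Cfap77, at 0.79 ± 0.28, for free Malat1 ASO against ATV:BACE1, and Cfap157, at 0.75 ± 0.34, and Cfap73, at 0.99 ± 0.47, for nonTV:Malat1 against ATV:BACE1. OTV:Malat1 against nonTV:Malat1 gave Cfap221, at 0.52 ± 0.23, Cfap77, at 0.48 ± 0.24, and Cfap300, at -0.54 ± 0.28. OTV:Malat1 against free Malat1 ASO gave Cfap298, at 1.38 ± 0.50, Cfap47, at 0.56 ± 0.24, and Cfap221, at 0.62 ± 0.28. No member had an adjusted p under 0.86 in Glia in any of the 5 comparisons (edgeR).

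**Figure D5:**
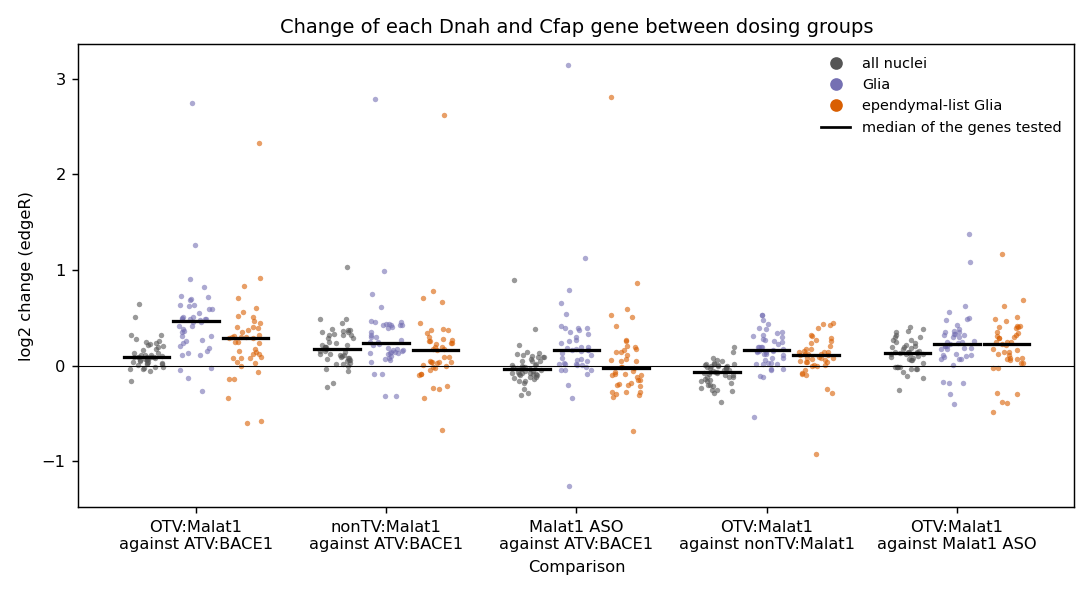
Log2 change (vertical axis) of each Dnah and Cfap gene tested (points) in 5 dosing comparisons, in all nuclei, Glia and ependymal-list nuclei; black lines are medians. Medians lie between -0.07 and 0.47, and the 3 highest points in Glia are Cfap58, which has at most 14 UMIs in a library.

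The 4 genes with the highest CPM in Glia were Cfap299, Dnah12, Cfap54 and Dnah6. In Glia their log2 changes for OTV:Malat1 against ATV:BACE1 were 0.54 ± 0.24, 0.49 ± 0.27, 0.27 ± 0.23 and 0.51 ± 0.22, and in ependymal-list nuclei 0.25 ± 0.19, 0.15 ± 0.20, 0.07 ± 0.20 and 0.38 ± 0.20, none of them called. In Neurons 47 genes were tested, in Astrocytes 41 and in Oligodendrocytes 21, with medians of 0.01, 0.25 and 0.04 for OTV:Malat1 against ATV:BACE1 and 0, 1 and 0 genes at an unadjusted p under 0.05, beside 0.782%, 1.49% and 1.46% of all genes. No member was called there, while 0%, 0% and 0.00809% of all genes were. In Microglia 2 members were tested and in endothelium 4, Dnah3 among them, with none called beside 0.0294% and 0.045% of all genes for OTV:Malat1 against ATV:BACE1. Against nonTV:Malat1 and free ASO the shares of all genes were 0.0225% in endothelium for each, 0.00809% in Oligodendrocytes for each, and 0.0294% in Microglia against free ASO. For Dnah3 in endothelium the log2 value was 0.16 ± 0.39.

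No gene of the related lists was called in these comparisons (edgeR). For OTV:Malat1 against ATV:BACE1 in Glia, 54 of the 55 axonemal accessory genes tested had a log2 change above 0, with a median of 0.39 against -0.01 for all genes tested. Of these 55, 14 had an unadjusted p under 0.05, beside 5.51% of all genes. The median was 0.29 for 11 multicilia transcription genes and 0.15 for 32 cytoplasmic dynein and intraflagellar transport genes. In ependymal-list nuclei the accessory median was 0.28 over 53 genes, with 5 at an unadjusted p under 0.05, beside 5.52% of all genes. The related lists were not examined without called doublets, and the part of the makeup of Glia in their values was not tested.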

How the data were processed

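Nuclei from 11 libraries were sequenced with a 10x Genomics 3′ kit, per the labels' protocols. The deposited matrix holds raw UMI counts per gene and nucleus; the submitters' processing notes name Cell Ranger 5.0.0, Seurat 4 and the mm10 build, and whether strand was used in counting is not given in the sources used here. Classes, clusters, doublet marks and batches were taken from the authors' deposited table of nuclei, which also gives the class prediction score and the doublet score as a fraction from 0 to 1 and the mitochondrial UMIs of each nucleus as a percent.

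UMI counts were summed per library and class (at least 20 nuclei) and divided by all UMIs for CPM. The edgeR 4.0.16 quasi-likelihood test (R 4.3.3) was fitted with all 4 groups together, with TMM, filterByExpr and Benjamini-Hochberg adjustment over all genes tested, at a threshold of 0.05; DESeq2 1.42.0 was an alternative. The scripts were tested on simulated data. Glia nuclei were divided by whichever marker list had more UMIs. Replicate numbers coincide with the metadata's batches, and libraries with the same number deviated together: over 15 such pairs the correlation of deviations from the group means was 0.57 to 0.88, against -0.83 to 0.42 for 30 other pairs. Deviations from a group mean cancel within a group. High values for pairs with the same number therefore lower those of the other pairs, and the pairs are not independent. Alternatives were the replicate number as a block, total counts without TMM, no filter, other cut-offs and leaving out each library; leaving out called doublets, dividing Glia nuclei by the choroid plexus list alone and fitting replicates 4 and 5 alone were added after seeing the data. Gene positions are GENCODE M21 (mm10), and RefSeq for Cfap47 and Cfap410.

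Named genes are the 25 of the 48 with the highest CPM in Glia, those highest in another class at 20 CPM or more, the 10 with the largest difference between the kinds of Glia nuclei, the 3 with the smallest p in each dosing comparison, and up to 4 genes of each related list. Others, such as those below the filter, are named to account for all 48, and were chosen after their values were seen. The 48 genes and the lists were chosen with earlier results of these data known. Python 3.11.15, pandas 2.3.3, scipy 1.17.1 and matplotlib 3.10.9 were used.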

Additional observations from a re-analysis of the deposited data

How the results depend on the processing

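The alternatives for the dosing comparisons gave 299 values, as each setting counts once per comparison and set of nuclei, and most left out a library. No Dnah or Cfap gene was called in any of them, for any dosing comparison in all nuclei, Glia, ependymal-list nuclei or the other classes. With the replicate number as a block, 0 of the 48 genes were called in each; in Glia, for OTV:Malat1 against ATV:BACE1, 22 genes were at an unadjusted p under 0.05, beside 7.65% of all genes, and the median log2 change was 0.47, as without the block; the block changed no other call. Leaving out each library in turn gave medians of 0.28 to 0.63 for that comparison, and 0 called genes each time. Without called doublets its median was 0.41, with 7 of 43 genes at an unadjusted p under 0.05, beside 4.70% of all genes; in ependymal-list nuclei its median was -0.02 instead of 0.29. The cause was not tested. Between ependymal-list and choroid-list nuclei, 34 to 41 genes were called under the alternatives (36 with DESeq2, 36 to 39 when a library was left out, 34 of 34 without doublets, 38 of 39 with the choroid plexus list alone, 36 of 38 in replicates 4 and 5 alone), none lower. Shares of all genes called are given above for the main fit, the fit without a filter and the choroid plexus list alone. For the other alternatives they are not given, so those counts are not set against all genes. The count of 37 genes above every other class did not change. Thinning to 500 UMIs gave 7.80 genes per ependymal-list nucleus instead of 12.4, as fewer UMIs are kept. Depth limits the genes below the filter and the smaller classes: 2 to 4 of the 48 were tested in microglia, endothelium, pericytes and leptomeningeal cells, and none in vascular smooth muscle.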
